A study of Bos taurus with 8 samples.

Results

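HOX genes encode homeodomain transcription factors and lie in 4 clusters, HOXA to HOXD, in which genes with the same number are paralogues. The array annotation named 24 of them among 15229 gene symbols, on 25 of 43794 probes, and every symbol made of HOX, a cluster letter and a paralogue number was taken as a member. The members were 7 genes of the HOXA cluster, 7 of HOXB, 6 of HOXC and 4 of HOXD. The RefSeq table of cattle genes (assembly ARS-UCD2.0) listed 39 HOX genes. The 15 for which no probe carried the symbol were not analysed here.

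In the embryo, HOX genes are switched on along the body axis in the order in which they lie on the chromosome, and they give segments their anterior or posterior identity. Their proteins bind DNA together with cofactors of the TALE class of homeodomain proteins, the PBX, MEIS and PKNOX families. Polycomb complexes keep HOX genes silent and Trithorax complexes keep them active, so that adult tissues often hold a part of the pattern laid down in the embryo.

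Transcripts were measured in mural granulosa cells, the cells that line the inner wall of the follicle, from 4 atretic and 4 growing dominant follicles of Holstein cattle. All follicles were over 9 mm in diameter and came from slaughterhouse ovaries of animals whose reproductive status and cycle stage were unknown. Phase was set by flow cytometry of DNA content: the growing follicles had the most cells with a full DNA content relative to cells with less, and the atretic follicles, in regression, had the fewest. An atretic and a growing follicle were hybridised together on a 2-colour array and again with the dyes exchanged, which gave 4 pairs and 8 arrays on 3 slides. The sources used here do not say whether each follicle came from a different animal, and p-values therefore measure only the spread among these follicles.

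Median intensity was 4.1 to 13.6 times the local background, and 48.4% to 72.1% of probes lay above the negative control spots on a channel. Pair 1 stood apart: its ratios over all probes correlated with those of pairs 2, 3 and 4 at -0.223, -0.373 and -0.0592, whereas pairs 2 to 4 correlated with each other at 0.227 to 0.502. The dye-swapped arrays of each pair correlated at 0.624 to 0.776, which does not bear on which follicle of a pair was the atretic one. The direction given by the labels was kept in all pairs. All 16 granulosa markers measured, FSHR, CYP19A1 and FOXL2 among them, were above the negative controls on at least 6 of 8 arrays in 1 phase or both. The share over all named genes was 67%. The mean log2 level of the 16 was 11.25, 10.90, 12.61 and 12.27 in growing follicles 1 to 4. In atretic follicles 1 to 4 it was 12.49, 11.10, 11.43 and 12.14. In growing follicle 2, CYP19A1 (7.42) and FOXL2 (7.49) lay near the negative controls and FSHR was at 7.85, while INHA was at 15.97.

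Few HOX genes gave a signal in these cells. A gene was counted as above the negative controls in a phase when its brightest probe exceeded the 95th percentile of the 153 negative control spots of the same array and channel on at least 6 of 8 arrays. Over the channels this limit ran from a log2 intensity of 7.14 to 7.51. By this count 7 of 24 HOX genes had signal in at least 1 phase, against 10198 of 15229 named genes (67%), and 6 of 24 had it in both phases, against 8858 (58.2%). The 7 genes were HOXA4 and HOXA5 of the HOXA cluster, HOXB2, HOXB4 and HOXB9 of HOXB, and HOXC4 and HOXC12 of HOXC, with none of the 4 HOXD genes. HOXB2, HOXB9 and HOXC4 were above the limit on 8 of 8 arrays in both phases.

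By paralogue group, signal was most complete in group 4, where HOXA4, HOXB4 and HOXC4 were above the limit and HOXD4 was so on no array. In group 9, HOXB9 was above on all 16 channels, whereas HOXA9 was above on 4 atretic and 3 growing arrays with its brighter probe and on 2 and 2 with the other. In group 2, HOXB2 was above on all channels and HOXA2 on 1 array in each phase. In group 12, HOXC12 was above on 6 arrays in each phase and HOXD12 on 1 growing array. HOXA5 was the one gene that counted as above in a single phase, on 6 atretic and 3 growing arrays. With a stricter limit, the 99th percentile or the mean plus 2 SD of the controls, HOXA5 and HOXC12 no longer counted in either phase, which left 5 genes, 4 in atretic and 5 in growing follicles, and HOXA5 did not count without pair 1 or 2 either. Probes differ in how strongly they bind, so these counts tell which probes gave signal and do not rank transcripts by amount.

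**Figure D1:**
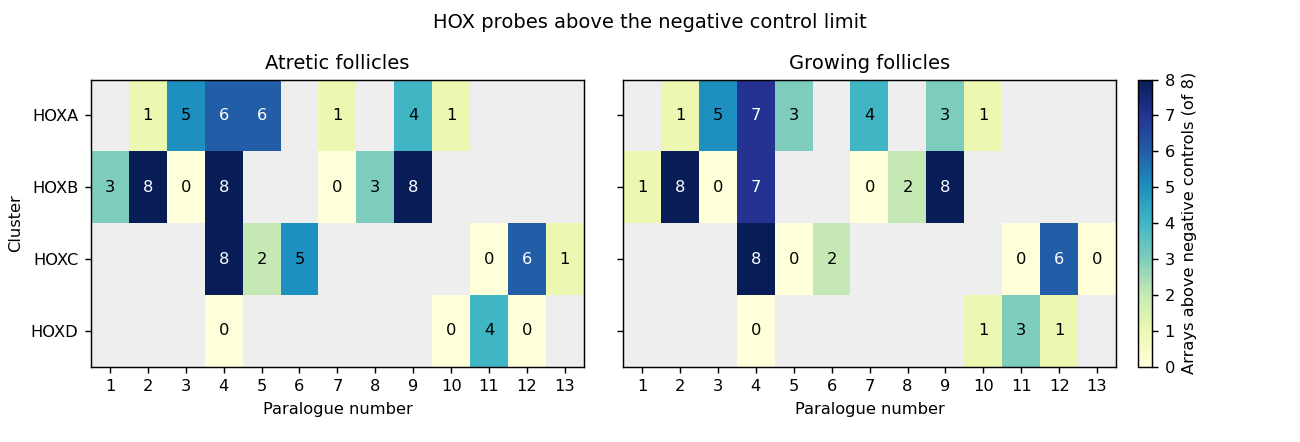
Number of arrays, of 8, on which each HOX gene was above the negative control limit in atretic (left) and growing (right) follicles, by cluster (rows) and paralogue number (columns), with grey cells for genes without a named probe. HOXB2, HOXB9 and HOXC4 are at 8 in both panels and the HOXD row does not pass 4.

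HOXC4 was the HOX gene whose level fell in atretic follicles by the threshold of the study, which asked for a 1.5-fold difference in either direction together with an unadjusted p below 0.05. HOXC4 belongs to the anterior part of its cluster and is known in mouse and human B cells as an activator of the gene for the antibody-diversifying enzyme AID. In the growing follicles of pairs 1 to 4 its log2 intensity was 12.76, 11.63, 9.65 and 10.31 (11.09 ± 1.38, SD, n = 4). In the atretic follicles it was 9.84, 9.14, 9.36 and 8.93 (9.31 ± 0.39, SD, n = 4). The atretic levels lay within 1 log2 unit of each other, and the growing levels spread over 3.1, with the highest in pairs 1 and 2. The groups overlapped, since atretic follicle 1 was above growing follicle 3.

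The log2 ratios of HOXC4, atretic over growing, were -2.92, -2.49, -0.30 and -1.38 in pairs 1 to 4, lower in atretic cells in 4 of 4 pairs, as were 883 of 13624 named genes (6.48%). The mean was -1.77 ± 0.47 (SE, n = 4 pairs, 95% confidence interval -2.97 to -0.57), a level 3.42-fold higher in growing than in atretic follicles. With limma the unadjusted p was 0.0128 and the adjusted p over all 36295 probes was 0.716. The 0.716 was also the smallest adjusted p of any probe, and 0 of 13625 named genes passed an adjusted p of 0.05, with 1143 (8.39%) at an unadjusted p under 0.05. An exact two-sided sign-flip test over the 4 pairs gave p = 0.125, the smallest that 4 pairs allow. In cells pooled from a whole follicle, fewer HOXC4-expressing cells and less HOXC4 RNA per cell cannot be told apart.

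The HOXC4 difference was present in both dye orientations. The mean ratio was -1.71 over the 4 arrays where Cy5 labelled the atretic follicle and -1.83 over the 4 where Cy3 did, and the ratio was below 0 on 7 of 8 arrays. The exception was the array of pair 3 with the atretic follicle in Cy5, at 0.05, whose dye swap gave -0.65. The highest raw intensity was 7191 and no HOXC4 spot was saturated. Without pair 1, 2, 3 or 4 in turn, the mean was -1.39, -1.53, -2.26 and -1.90, and each passed the threshold of the study. The sources used here do not say which part of the HOXC4 transcript the probe covers.

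**Figure D2:**
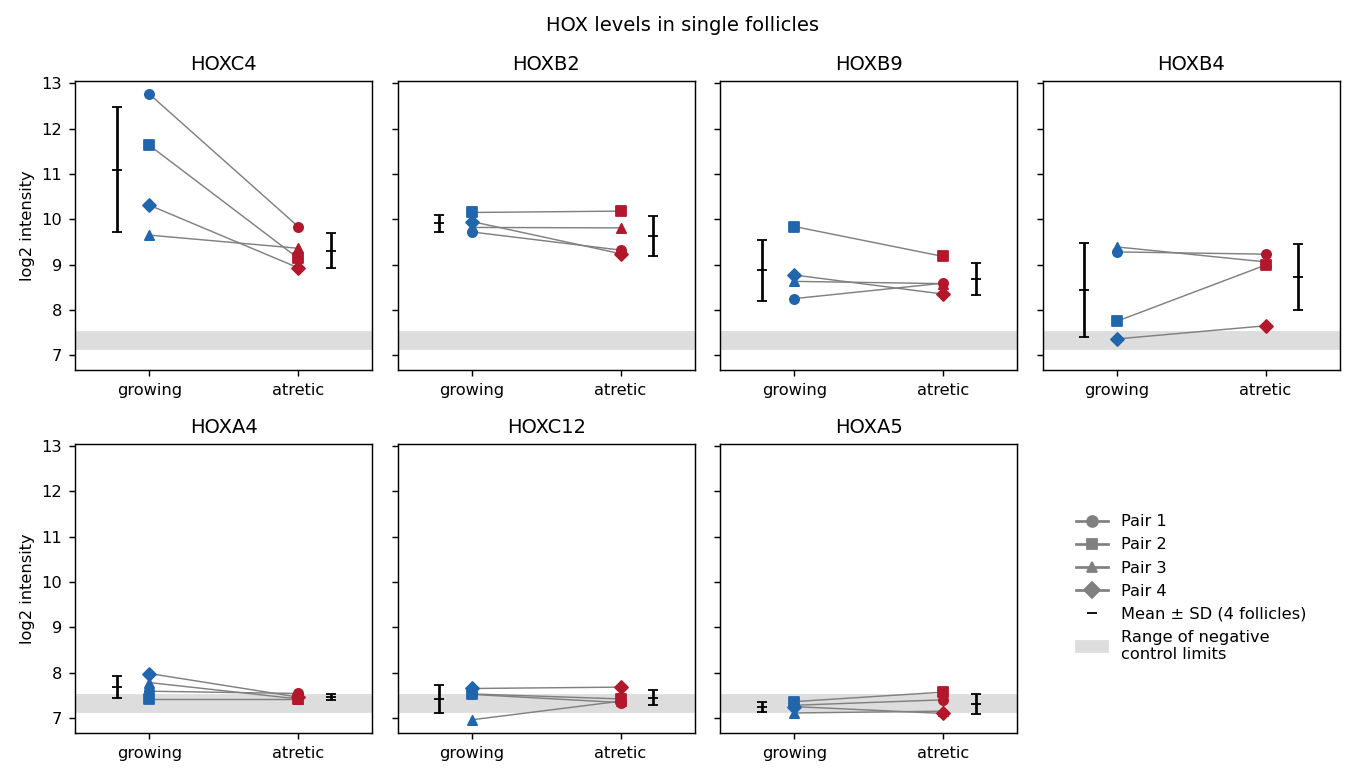
Log2 intensity (vertical axis) of the 7 HOX genes with signal in each growing (blue) and atretic (red) follicle, with a line and a marker shape for each pair, bars for the mean ± SD of 4 follicles, and a grey band for the range of the negative control limits, 7.14 to 7.51. HOXC4 falls from 11.09 to 9.31 on average, HOXB4 has both follicles of pair 4 near the band, and HOXA4, HOXC12 and HOXA5 lie close to it.

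The other HOX genes did not pass the threshold, so that 1 of the 14 in the fit did, against 696 of 13625 named genes (5.11%), of which 333 (2.44%) were lower in atretic cells. The fit held probes whose log2 intensity averaged 7 or more, which 14 of 24 HOX genes and 13625 of 15229 named genes (89.5%) reached. Of these 14, 7 had a mean ratio above 0 and 7 below, and their median was 0, beside 0.01 over all named genes, of which 6494 (47.7%) were below 0. HOXC4 was far from the rest of the clusters: 22 of 13625 named genes had a lower mean ratio, and the other 13 HOX genes ran from -0.27 to 0.29. Of those 13, 7 had no signal in either phase by the count above, and HOXA4, HOXA5 and HOXC12 lay near the control limit. Dim probes limit how large a ratio could be seen.

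**Figure D3:**
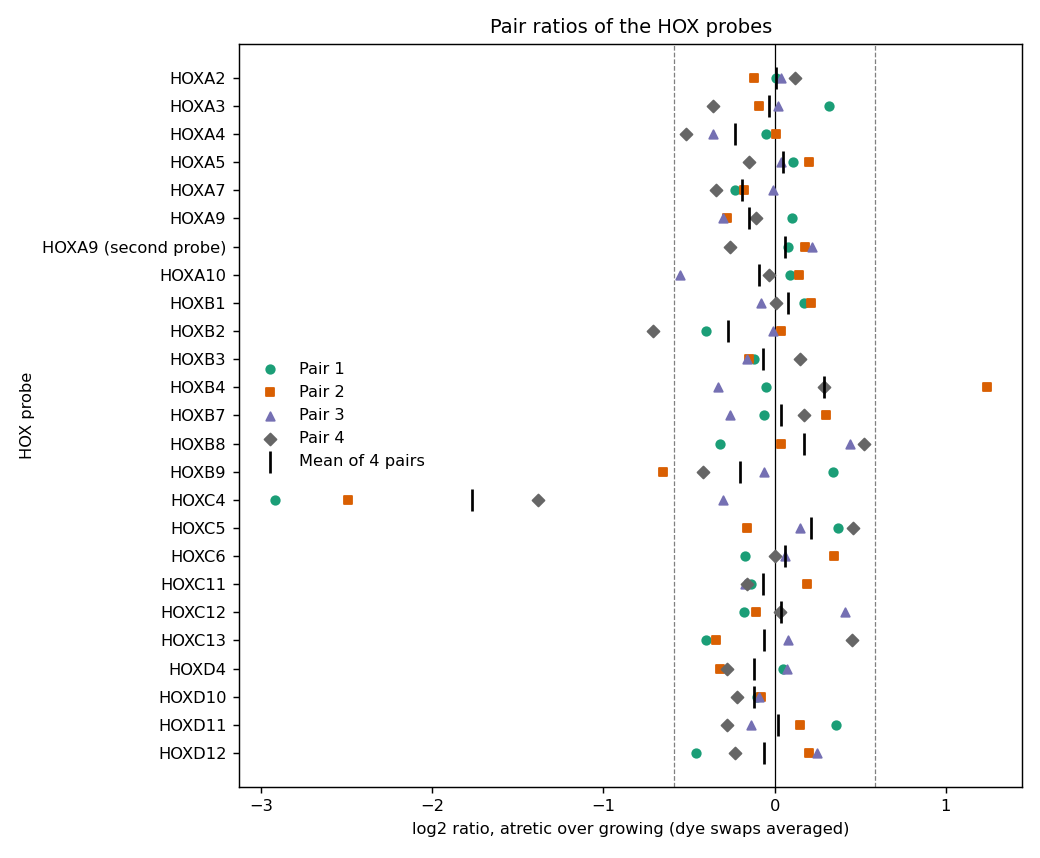
Log2 ratio of atretic over growing (horizontal axis, dye swaps averaged) for each of the 25 HOX probes in the 4 pairs (coloured markers) with the mean of the pairs (bar), and dashed lines at a fold of 1.5 either way. HOXC4 has 3 pairs between -2.92 and -1.38 and 1 at -0.30, and the one other pair value past 1 is HOXB4 in pair 2, at 1.24.

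**Figure D4:**
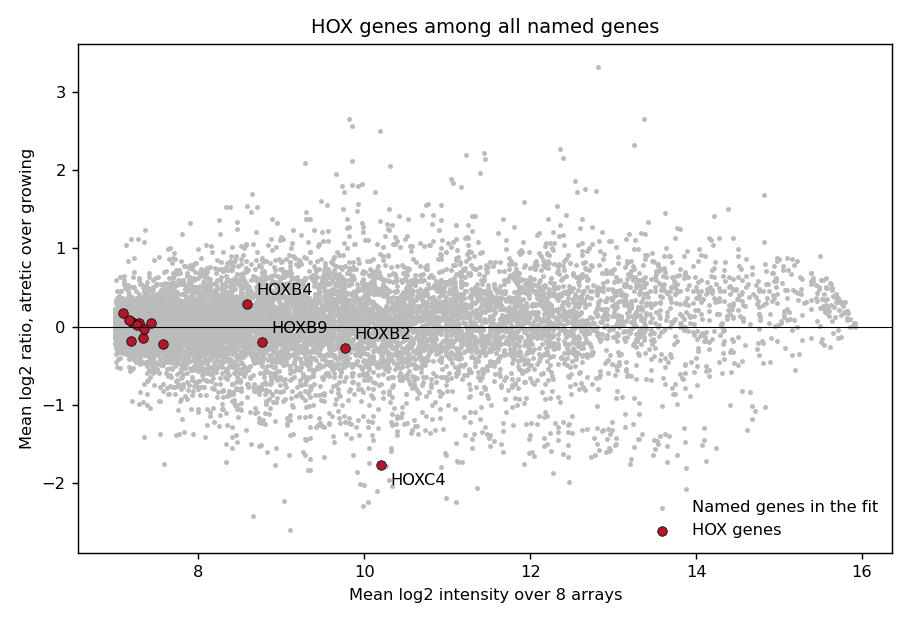
Mean log2 ratio of atretic over growing (vertical axis) against mean log2 intensity over 8 arrays (horizontal axis) for the 13625 named genes in the fit (grey) and the 14 HOX genes among them (red). HOXC4 lies at -1.77, and the remaining HOX genes lie between -0.27 and 0.29, mostly at low intensity.

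The 3 HOXB genes with signal were measured in every follicle, and the 95% confidence intervals of their ratios all included 0. HOXB2, which patterns the hindbrain in the mouse, had log2 intensities of 9.72, 10.15, 9.82 and 9.95 in the growing follicles and of 9.32, 10.18, 9.81 and 9.24 in the atretic ones. Its ratios were -0.40, 0.04, -0.01 and -0.71, with a mean of -0.27 ± 0.17 (SE, n = 4 pairs, interval -0.70 to 0.16, limma adjusted p = 0.85). Pairs 2 and 3 were level and pairs 1 and 4 were lower in the atretic follicle. The mean ratio of HOXB2 differed between dye orientations, at -0.86 where Cy5 labelled the atretic follicle and 0.31 where Cy3 did, a gap that averaging the swaps removes.

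HOXB4, a gene known for expanding blood stem cells in mouse and human, varied more between follicles than between phases. Its log2 intensity was 9.28, 7.75, 9.39 and 7.36 in the growing follicles and 9.23, 8.99, 9.06 and 7.65 in the atretic ones. In 5 follicles it lay between 8.99 and 9.39, and in growing follicles 2 and 4 and atretic follicle 4 it lay between 7.36 and 7.75, a span of 2.03 over all 8. Both follicles of pair 4 were low, and both of pairs 1 and 3 were high. The ratios were -0.05, 1.24, -0.33 and 0.29, with a mean of 0.29 ± 0.28 (interval -0.44 to 1.01, limma adjusted p = 0.899). Pair 2 decided the sign of this mean, which was -0.03 without it.

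HOXB9, of the posterior part of its cluster and known in the mouse for patterning the thoracic skeleton, was at 8.25, 9.84, 8.63 and 8.77 in the growing follicles and 8.59, 9.18, 8.58 and 8.35 in the atretic ones. Both follicles of pair 2 had the highest value of their phase. The ratios were 0.34, -0.65, -0.06 and -0.42 and the mean was -0.20 ± 0.19 (interval -0.69 to 0.30, limma adjusted p = 0.899). Pair 1 was higher in the atretic follicle and the 3 other pairs were lower.

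HOXA4, HOXA5 and HOXC12 stayed close to the control limit. HOXA4, which with its paralogues patterns neck vertebrae in the mouse, was at 7.59, 7.42, 7.78 and 7.98 in the growing follicles and 7.54, 7.42, 7.42 and 7.46 in the atretic ones. Its mean ratio was -0.23 ± 0.14 (interval -0.58 to 0.12, limma adjusted p = 0.845), from -0.05, 0.01, -0.36 and -0.52 in the pairs. The atretic follicles were nearly alike and the growing ones of pairs 3 and 4 were higher. HOXA5, needed for lung development in the mouse, was at 7.28, 7.36, 7.11 and 7.25 in the growing follicles and 7.40, 7.57, 7.15 and 7.10 in the atretic ones, with a mean ratio of 0.05 ± 0.11 (interval -0.23 to 0.34, limma adjusted p = 0.955). HOXC12 was at 7.52, 7.53, 6.96 and 7.65 in the growing follicles and 7.34, 7.42, 7.37 and 7.68 in the atretic ones, with a mean ratio of 0.04 ± 0.14 (interval -0.32 to 0.40, limma adjusted p = 0.976) that was -0.09 without pair 3. For HOXA4, HOXA5 and HOXC12 the ranges of the phases overlapped.

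The remaining 17 HOX genes did not reach 6 of 8 arrays in either phase. HOXB3, HOXB7, HOXC11 and HOXD4 were above the limit on no array, and 13 were above it on 1 to 10 of 16 channels: HOXA2, HOXA3, HOXA7, HOXA9, HOXA10, HOXB1, HOXB8, HOXC5, HOXC6, HOXC13, HOXD10, HOXD11 and HOXD12. Their levels ran from 6.11 to 7.59, their pair ratios from -0.55 to 0.52 and their mean ratios from -0.19 to 0.21, and none of the 7 in the fit passed the threshold of the study. Of the 17, 10 were too dim for the fit: HOXA2, HOXA10, HOXB3, HOXB7, HOXC5, HOXC11, HOXC13, HOXD4, HOXD10 and HOXD12. HOXA10, known for its role in the uterus of mouse and human, was above the limit on 1 array in each phase. Beside HOXC4, HOXA7 and HOXD10 had a ratio below 0 in all 4 pairs. HOXA7 averaged -0.19 ± 0.11 with 1 atretic and 4 growing arrays above the limit, and HOXD10 was above on 1 of 16 channels.

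The genes next to HOXC4 were near the control limit and did not show its ratios. In the RefSeq order HOXC5 and HOXC6 follow HOXC4. HOXC5 was above the limit on 2 atretic arrays and no growing one, with pair ratios of 0.37, -0.16, 0.15 and 0.46. HOXC6 was above on 5 atretic and 2 growing arrays, with a mean ratio of 0.06 ± 0.13, and pair ratios of -0.17, 0.35, 0.06 and 0.00 against -2.92 to -0.30 for HOXC4. Of 23 genes that flank the 4 clusters and were named on the array, 19 were above the controls, beside 67% of all named genes. In the fit were 22, with 12 mean ratios above 0, 10 below and a median of 0.04. Of these, 0 passed the threshold, beside 5.11% of all named genes. The smallest p values belonged to NFE2L1, a transcription factor gene beside the HOXB cluster (0.54 ± 0.24), SNX10, a sorting nexin gene beside HOXA (0.38 ± 0.25), and EVX1, a homeobox gene at the end of the HOXA cluster (-0.15 ± 0.11). SMUG1, a DNA repair gene, and CBX5, a heterochromatin protein gene, which flank the HOXC cluster, had mean ratios of 0.18 ± 0.14 and -0.59 ± 0.45. Other probes in the fit gave mean ratios of 0.64 and 0.14 for NFE2L1, 0 for SNX10 and -0.28 for CBX5. SMUG1 was above the limit on 2 atretic arrays and no growing one, and EVX1 on 1 array in each phase.

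Over the 8 follicles, 0 of the 13 other HOX genes in the fit had a correlation with HOXC4 of at least 0.9, a value that 129 of 13611 named genes (0.948%) reached and that few genes of any kind therefore share. Pearson's r with HOXC4 was 0.24 for HOXB2, 0.125 for HOXB9, 0.017 for HOXB4 and 0.547 for HOXA7, and it was lowest for HOXB1 at -0.79, a gene with 3 atretic and 1 growing arrays above the limit. An r of at least 0.95 was found for 73 named genes (0.536%). These correlations describe 8 follicles that share arrays in pairs, with no test. The nearest were TOP1, DNA topoisomerase I (r = 0.995), SHMT1, an enzyme of serine and folate metabolism (0.993), HSPG2, the basement membrane proteoglycan perlecan (0.993), SNW1, a splicing and transcription cofactor (0.991), and GPR37L1, an orphan receptor (0.991).

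TOP1 had log2 intensities of 13.66, 12.68, 10.87 and 11.46 in the growing follicles and 11.14, 10.62, 10.82 and 10.62 in the atretic ones. These genes were picked for levels like those of HOXC4, so the order of their follicles and the sign of their ratios followed from the choice. The mean ratio was -1.37 ± 0.45 for this TOP1 probe, and the other TOP1 probes had r of -0.452 and 0.388 with HOXC4 and mean ratios of 0.11 and -0.20, so the likeness held for 1 of 3 probes. Mean ratios were -1.66 ± 0.51 for SHMT1, -1.55 ± 0.45 for HSPG2, -1.51 ± 0.44 for SNW1 and -0.29 ± 0.12 for GPR37L1. TOP1, SHMT1 and SNW1 no longer passed the threshold without pair 1, 2 or 4, nor HSPG2 without pair 2.

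**Figure D5:**
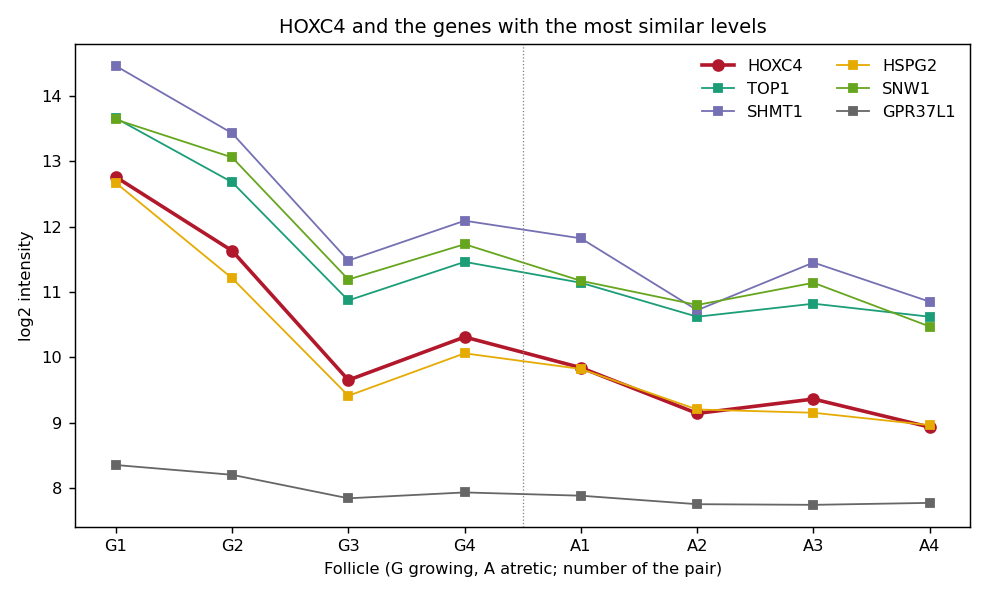
Log2 intensity (vertical axis) of HOXC4 and of the 5 named genes with the most similar levels in the growing (G1 to G4) and atretic (A1 to A4) follicles of pairs 1 to 4 (horizontal axis). All are highest in G1 and next highest in G2, with r between 0.991 and 0.995.

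Some genes for partners of HOX proteins gave a signal in both phases. Of 8 TALE cofactor genes named on the array, 5 were above the controls, namely MEIS1, MEIS2, PBX2, PBX3 and PKNOX1. MEIS3, PBX4 and PKNOX2 were not. The share over all named genes was 67%, so the count was near the background. Of the 7 in the fit, 3 had a ratio above 0 and 4 below (median -0.07), and 0 passed the threshold of the study, which 5.11% of all named genes did. PBXIP1, which is no TALE gene but binds PBX proteins and hinders their work with HOX on DNA, stood in the same list and rose by that threshold. PBXIP1 was at 12.61, 11.78, 11.13 and 11.30 in the growing follicles and 13.03, 13.40, 12.25 and 12.42 in the atretic ones, and it was higher in 4 of 4 pairs, by 1.07 ± 0.21 (limma adjusted p = 0.716). The ranges overlapped, with growing follicle 1 above atretic follicles 3 and 4. The DNA-binding cofactors MEIS2 (-0.53 ± 0.25) and PBX2 (0.44 ± 0.37) did not pass.

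Among the regulators of HOX chromatin, 28 Polycomb genes were named and in the fit, 25 of them above the controls, beside 67% of all named genes. Their ratios were above 0 for 12 and below for 15, with a median of -0.01. Of these 28, 2 fell and 0 rose by the threshold of the study, beside the 2.44% of all named genes that fell and the 5.11% past it either way. The count past it either way was near the background, and a count of 2 that fell is too small to set against the 2.44%. EZH2, the histone methyltransferase of Polycomb complex PRC2, was at 10.45, 10.87, 11.41 and 11.67 in the growing follicles and 9.05, 9.66, 10.06 and 9.40 in the atretic ones, a mean ratio of -1.56 ± 0.21 (limma adjusted p = 0.716). The phases did not overlap for this probe, and a second EZH2 probe gave a mean ratio of -0.35. MTF2, a PRC2 accessory protein, averaged -0.63 ± 0.22 and lost the threshold in 6 of 19 alternatives. Of 9 Trithorax-related genes, all above the controls, 5 ratios were above 0 and 4 below (median 0.14). PSIP1, which tethers the MLL complex to chromatin, rose by 0.78 ± 0.18, and DPY30, a subunit of these methyltransferase complexes, averaged -0.61 ± 0.23 and lost the threshold in 7 of 19 alternatives. So 2 of 9 passed, beside 5.11% of all named genes.

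Some markers of other cells gave a signal, and their levels varied between follicles. The counts above the controls in this and the next paragraph stand beside 67% of all named genes. The mean log2 level of 7 smooth muscle markers, 5 above the controls, was 9.20, 8.81, 8.64 and 8.41 in growing follicles 1 to 4 and ran from 8.73 to 9.69 in the atretic ones. That of 9 endothelial markers, 4 above the controls, was 7.65, 7.78, 7.30 and 7.20 in growing follicles 1 to 4 and ran from 7.20 to 7.67 in the atretic ones. Growing follicles 1 and 2 had the highest growing means in both lists, while atretic follicles reached similar values. The place of growing follicle 1 in this order rested on KDR for endothelium and on MYH11 for smooth muscle. Single members weighed heavily on these means: KDR for endothelium, and MYH11 and CNN1 (10.81 in growing follicle 2) for smooth muscle. The endothelial marker CLDN5 was at 7.27, 8.01, 8.17 and 7.84 in growing follicles 1 to 4. CDH5 of that list was at 7.68, 7.38, 7.63 and 7.57. KDR, a VEGF receptor of endothelium, was at 10.41, 11.03, 7.11 and 6.65 in growing follicles and at 6.80, 9.55, 9.36 and 7.51 in atretic follicles. The smooth muscle myosin MYH11 was at 12.17 in growing follicle 1 and at 7.93 or lower in the other growing follicles. In atretic follicles 1 to 4 MYH11 was at 8.40, 12.28, 11.88 and 9.95. ACTA2 of the same list was at 12.21, 12.08, 12.48 and 12.66 in growing follicles 1 to 4. The leukocyte marker PTPRC was highest in growing follicle 1, at 9.73, but its list as a whole was not. The mean of the 10 leukocyte markers was 7.55 there, below growing follicle 2 (7.61) and atretic follicles 2 and 3 (7.74 and 7.78). TYROBP of that list was at 7.20 in growing follicle 1 and at 9.00 in atretic follicle 3.

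The mean level of 11 stroma markers, 10 above the controls, was 8.57, 9.63, 8.75 and 8.04 in growing follicles 1 to 4 and ran from 8.37 to 8.93 in the atretic ones. The mean level of 10 theca markers, 8 above the controls, ran from 8.43 to 10.32 in atretic and from 8.60 to 9.79 in growing follicles. Granulosa cells of dominant follicles also express STAR, HSD3B1 and LHCGR of this list, and without these 3, a choice made after the values were seen, it ran from 8.32 to 8.76 and from 8.29 to 9.07, with growing follicle 3 highest. The means of 10 leukocyte markers, 6 above the controls, ran from 7.18 to 7.78 in atretic and from 7.18 to 7.61 in growing follicles. For 8 surface epithelium and 8 oocyte markers, 2 above the controls in each list, no mean was above 7.36. The keratin gene KRT19 of the surface epithelium list passed the threshold (0.78 ± 0.21), as did the granulosa marker AMHR2, a receptor for anti-Müllerian hormone (1.61 ± 0.50), and both lost it without pair 3 or 4. The part of other cell types in the HOX values was not tested.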

How the data were processed

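Granulosa cell RNA was amplified, labelled and hybridised by the study's authors on EmbryoGENE bovine arrays. The deposited intensity values were scanner medians of each spot and its local background from Array-Pro Analyzer 6.4, with obstructed spots excluded by hand. The authors also deposited processed log2 ratios of Cy5 over Cy3 (FlexArray 1.6.1: background subtraction, loess, quantiles), used here as an alternative. They correlated at 0.9986 to 0.9999 with ratios rebuilt by plain subtraction, with slopes of 0.9958 to 1.0007 and medians of -0.02 to -0.01.

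Here, intensities were corrected with normexp (offset 50), then loess and quantile normalised in limma 3.58.1 (R 4.3.3). The 1426 control spots of 45220 had no weight in the loess fit and stayed in the quantile step. After normexp, 4 to 50 excluded spots per array were left out. Ratios were turned to atretic over growing, dye swaps were averaged (n = 4 pairs), and 36295 of 43794 probes whose log2 intensity averaged 7 or more were tested against 0 with lmFit and eBayes, two-sided, with Benjamini-Hochberg adjustment over all of them. Up to 44 probes per channel of an array were saturated. The script was tested on simulated data. The annotation gave 1 symbol to 21790 probes and none to 22004. A gene was represented by its brightest probe.

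Pairs were numbered from the array positions or titles in the labels. The 2 follicles of a pair shared both arrays, and for 8 of 8 arrays the closest array was its own dye swap.

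All HOX genes were accounted for, with follicle values for those above the negative controls or past the study's threshold. From the other lists, the genes past that threshold were named and otherwise up to 3 with the smallest p, except that only counts, ranges and genes past it were given for cell type markers. Genes named beyond these (SMUG1, CBX5, HOXA7, HOXA10, HOXD10, KDR, CLDN5, CDH5, MYH11, CNN1, ACTA2, PTPRC, TYROBP, CYP17A1, FSHR, CYP19A1, FOXL2, INHA and the TALE genes, of which PBXIP1 was listed as one and is counted apart) were picked after their values were seen. The members and lists were chosen with earlier results of these data known. The alternatives tried were other background corrections, normalisations, filters, probe rules, variance models, replicate blocks, control limits and leaving out each pair. No sequences or coordinates are given, since no source used here names the build behind the probe annotation.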

Additional observations from a re-analysis of the deposited data

Results flagged for a closer look

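HOXB4 in the atretic follicle of pair 4 lay far below the other atretic follicles, at a log2 intensity of 7.65 against 8.99 to 9.23. Its gap to the nearest was 0.848 of the range of the group. Chance flags about 1 group in 20, and 21 groups were examined here with 1 flagged. The growing follicle of the same pair, hybridised on the same arrays, was also low, at 7.36.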

How the results depend on the processing

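HOXC4 passed the threshold of the study in 19 of 19 alternatives, with mean ratios from -2.26 to -1.39 and adjusted p from 0.0355 to 0.996, and it was the one HOX gene past it in each, so that the count was 1 throughout, 1 to 1 with a pair left out. With the pair as a random replicate block over 8 arrays (consensus correlation 0.46) its ratio was -1.77 with an adjusted p of 0.0659, and 0.0926 with a dye term added (correlation 0.671). The adjusted p was under 0.05 only with no replicate block and the 8 arrays taken as independent, 0.0355, a setting that counts each follicle more than once and called 615 probes against 0. With no replicate block and the follicles unpaired it was 0.762. The random replicate block called 21 probes, and 17 with the dye term. The number of probes past the threshold of the study was 1275, and 3402 without pair 1, 781 without pair 4, and 1684, 1841, 2243, 2161 and 2248 with median centring, array weights, the random block, the block with dye and independent arrays. The median over all probes moved by at most 0.01. With a pair left out, HOXB4 ran from -0.03, a turn in sign without pair 2, to 0.49, and HOXC12 from -0.09, a turn without pair 3, to 0.11. MTF2 and DPY30 lost the threshold with no background correction (-0.56 and -0.57), median centring (-0.50 and -0.42) and the intensity trend, MTF2 also without pair 1, 3 or 4, and DPY30 without pair 2, 3 or 4 and unpaired. The number of HOX genes above the controls in atretic follicles fell from 7 to 4 with the 99th percentile and to 4 with the mean plus 2 SD of the controls, where HOXA5 and HOXC12 counted in neither phase, and was 5 to 7 with a pair left out. In growing follicles it fell from 6 to 5 and 5, and was 5 to 6. Intensities near the controls limit what could be seen for 17 HOX genes.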

Other observations

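Homeobox genes outside the HOX clusters were also mostly dim. Of 34 named on the array, 11 were above the negative controls in at least 1 phase, against 67% of all named genes, and 25 were in the fit, with 14 mean ratios above 0, 11 below and a median of 0.04. LHX2, a LIM homeobox gene, was the one of 25 past the threshold of the study, which 5.11% of all named genes passed, and it was lower in atretic follicles by a mean log2 ratio of -0.99 ± 0.31 (n = 4 pairs, limma adjusted p = 0.759). Its log2 intensity was 7.85, 7.92, 7.67 and 7.70 in the growing follicles and 7.89, 6.17, 6.79 and 6.32 in the atretic ones. It was above the control limit on 8 growing and 2 atretic arrays, and pair 1, at 0.04, did not share the difference of the other pairs. LHX2 no longer passed without pair 2, 3 or 4.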
